A study of Rattus norvegicus with 10 samples.

Results

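Liver RNA was compared for the genes that build and remodel the extracellular matrix: the collagens and laminins, the lysyl oxidases, fibronectin, elastin, fibrillin, Sparc, 3 small proteoglycans, the matrix metalloproteinases and their tissue inhibitors. Members were chosen by gene symbol from the array's annotation, 1 probe set per gene, the one with the highest mean level over the 10 arrays. This gave 83 of the 14217 genes with 1 symbol, on 120 probe sets. Of these, 52 lay above the filter on dim probe sets, and 10328 genes did so in all. Liver pieces came from 5 mulberry rats, whose daily oral dose of mulberry leaf powder in carboxymethylcellulose was 500 mg per kg, and from 5 control rats with a dose of 0 mg per kg. All were Wistar/ST rats on a high-fat diet and were killed after 7 weeks, with 1 Affymetrix array each. Sex and age are not given in the sources used here, and both groups share the fat-rich diet, so no comparison with normal feed is made. Rat numbers come from the titles.

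The extracellular matrix of the liver is sparse. Fibrillar collagens form the fibres of the portal tracts and central veins, type IV collagen and laminins line vessels, ducts and the space beside the sinusoids, and type VI collagen forms fine beaded filaments. Stellate cells and portal fibroblasts make most of the fibrillar collagen, lysyl oxidases cross-link it, metalloproteinases cut it and tissue inhibitors block those enzymes. In fatty liver disease that advances to fibrosis, collagen types I and III accumulate. Fibronectin is an exception among matrix proteins, as hepatocytes also release it into plasma in large amounts.

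Promoter letters are shown for the 3 members with the smallest unadjusted p, Col8a1, Lamb3 and Lamc3, and for the stretch between the starts of Col4a1 and Col4a2, neighbouring genes that point away from each other and share it. They were taken from RefSeq (rat build GRCr8) and end at the base before the annotated start. Capitals mark the letters of a CCAAT box, of a GC box (GGGCGG), of a TATA box (TATAAA) or of an AP-1 site (TGANTCA, where N is any base) on either strand, overlaps joined.
Col8a1, chr11:56246532-56246781, + strand: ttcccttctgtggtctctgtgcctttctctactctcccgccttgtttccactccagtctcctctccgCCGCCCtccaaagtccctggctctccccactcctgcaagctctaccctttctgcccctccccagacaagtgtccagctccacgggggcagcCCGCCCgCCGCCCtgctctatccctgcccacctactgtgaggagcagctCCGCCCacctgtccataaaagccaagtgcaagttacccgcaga
Lamb3, chr13:107362303-107362552, + strand: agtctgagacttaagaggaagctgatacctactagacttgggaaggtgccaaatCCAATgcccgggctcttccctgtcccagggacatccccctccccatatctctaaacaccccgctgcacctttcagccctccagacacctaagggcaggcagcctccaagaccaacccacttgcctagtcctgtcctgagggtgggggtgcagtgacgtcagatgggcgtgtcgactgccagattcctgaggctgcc
Lamc3, chr3:35562739-35562988, + strand: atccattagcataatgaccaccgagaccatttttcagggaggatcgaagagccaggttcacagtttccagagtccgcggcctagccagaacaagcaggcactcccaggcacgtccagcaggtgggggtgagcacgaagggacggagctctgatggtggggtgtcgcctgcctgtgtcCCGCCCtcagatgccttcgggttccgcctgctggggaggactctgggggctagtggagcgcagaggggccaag
Col4a1 to Col4a2, chr16:84885521-84885596, + strand (the strand of Col4a1): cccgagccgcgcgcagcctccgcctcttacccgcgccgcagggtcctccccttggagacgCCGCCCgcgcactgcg
The Col8a1 window held 4 matches to GGGCGG, Lamc3 1, and the 76 bases between the Col4a1 and Col4a2 starts 1, while Lamb3 held 1 match to CCAAT. A window of 250 bases was found for 61 of the 83 members. The letters GGGCGG stood in 31 of these 61 (50.8%), against 33.5% of the 27457 genes with a window. CCAAT stood in 15 members (24.6%), against 36.1% of genes. TATAAA stood in 11 (18.0%), against 14.1%, and the letters TGANTCA in 7 (11.5%), against 7.0%. These shares describe letters, and the arrays do not show which factors bind there.

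No matrix gene was found to differ between mulberry and control rats after adjustment over all tested probe sets. With limma and Benjamini-Hochberg adjustment, 0 of 52 members passed an adjusted p of 0.05, and the background was 0% of 10328 genes and 0% of 18625 probe sets. Before adjustment, p was under 0.05 for 325 probe sets (1.74%), 185 genes (1.79%) and 3 of the 52 members, which were Col8a1, Lamb3 and Lamc3. That count was 1 with quantile normalization or a median shift, 0 without mulberry rat 2, mulberry rat 5 or control rat 2, and 5 without control rat 4. Lamb3, Col2a1 and Mmp16 passed the filter through their mulberry values, as their control means lay under the filter level, so their share in any count supports nothing. Of the members, 35 had a higher mean with mulberry, a share of 67.3% against 51.3% of all genes, and 17 a lower one (32.7%, against 48.7%). The median difference of mulberry over control, in log2(intensity + 16) units as used throughout, was 0.069 for members and 0.004 for all genes. The member median was 0.033 without mulberry rat 1, 0.040 without control rat 5 and 0.140 without control rats 1 and 3. The groups of 0 members stood fully apart, against 33 genes in all (0.320%). These are bulk samples, in which fewer cells of a type and less RNA per cell cannot be told apart.

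**Figure D1:**
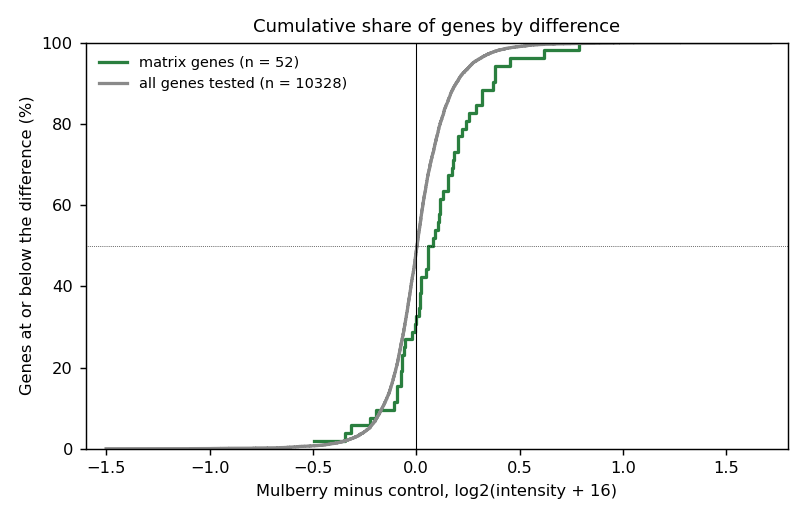
Cumulative share of genes (percent, vertical axis) by the difference of mulberry minus control rats (log2(intensity + 16), horizontal axis), for the 52 matrix genes (green) and all 10328 genes tested (grey). The green curve crosses 50% at 0.069 and the grey curve at 0.004.

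Differences were small for most members. They spanned -0.49 (Eln) to 0.79 (Col8a1), and 35 members lay under 0.2 in size, against 8652 of all genes (67.3% and 83.8%). Matrix genes were dimmer than most, with a median level of 7.77 on the log2 scale against 9.04 for all genes. The median SD between rats of a group was 0.32 for members and 0.24 for all genes. Over the 26 members with levels between 6.85 and 8.65 it was 0.27, as over all 3368 genes in that range (0.27). In the text below, values per rat are linear intensities in the order of rat numbers 1 to 5, and differences have the standard error (SE) of the limma fit. Of the 52 differences, 49 changed sign or moved by over 1.5 times when 1 rat was left out. The 3 that did not were Col4a1, Lamb3 and Lamc3. The same count was not made over all genes, so it shows nothing particular to matrix genes.

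**Figure D2:**
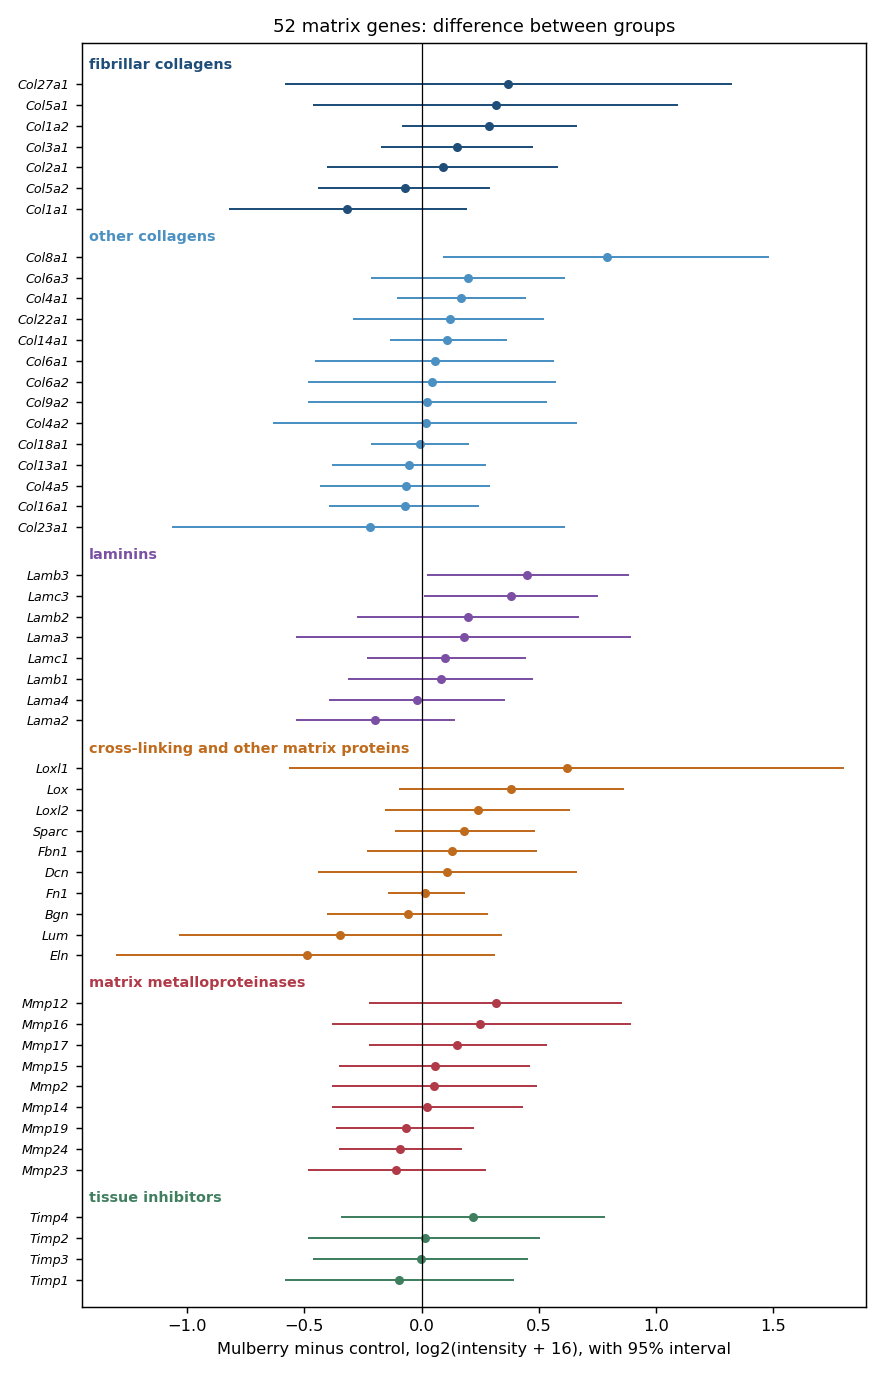
Difference of mulberry minus control rats for each of the 52 matrix genes (points, log2(intensity + 16)) with its 95% interval from limma (lines), by role. All intervals but those of Col8a1, Lamb3 and Lamc3 include 0.

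Among fibrillar collagens, which assemble into the tensile fibres of connective tissue, 5 of 7 members had a higher mean with mulberry (median 0.153), and none passed the test. Col3a1, the single chain of type III collagen and part of the fine reticulin network of the liver, had intensities of 2046, 1953, 2157, 2307 and 2167 in mulberry rats, against 2392, 1822, 2107, 2153 and 1277 in control rats. Its groups overlapped, and control rat 5 was the lowest of all 10 rats. The difference was 0.15 ± 0.15 (95% interval -0.17 to 0.47), or 0.0094 without control rat 5. For Col1a2, 1 of the 2 chains of type I collagen, intensities were 309, 243, 313, 243 and 287 in mulberry rats, against 321, 218, 156, 247 and 208 in control rats. The 5 mulberry rats lay inside the range of the control rats, which were more scattered. Its difference was 0.29 ± 0.17 (interval -0.081 to 0.66), or 0.17 without control rat 3, and its second probe set gave 0.22 ± 0.15.

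Col1a1, the other chain of type I collagen, had opposite signs on its 2 probe sets. Its brighter probe set showed 111, 36.6, 95.0, 99.6 and 99.3 in mulberry rats, against 115, 129, 99.5, 103 and 97.3 in control rats. All rats but mulberry rat 2 lay close together, and the difference of -0.32 ± 0.24 shrank to -0.085 without that rat. The second probe set had intensities of 94.2, 99.4, 135, 94.4 and 128 in mulberry rats, against 167, 74.8, 13.4, 103 and 75.4 in control rats. There control rat 3 was far below the rest, and the difference was positive (0.50 ± 0.38). Type V collagen, which sets the width of type I fibrils, was likewise without a clear direction. Col5a1 was measured at 102, 107, 164, 42.2 and 113 in mulberry rats, against 132, 134, 71.8, 30.6 and 55.7 in control rats. Both groups spread over about the same range. The difference was 0.32 ± 0.36, against -0.29 ± 0.33 on the second probe set. Col5a2 had 238, 219, 222, 278 and 250.0 in mulberry rats, against 352, 288, 245, 248 and 169 in control rats, a difference of -0.072 ± 0.17, or 0.040 without control rat 1. The 5 mulberry values of Col5a2 lay within the wider control range. Col27a1 (0.37 ± 0.44) and the cartilage collagen gene Col2a1 (0.093 ± 0.23) had wide errors, and Col2a1, at a mean level of 6.30, was the member just above the filter level of 6.27.

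Of the other collagens, 9 of 14 had a higher mean with mulberry (median 0.034), and again none passed. Col8a1, a short-chain collagen of vessel walls, had the largest difference of the 52 members. Its intensities were 77.4, 139, 157, 93.2 and 173 in mulberry rats, against 110.3, 58.8, 21.0, 74.2 and 90.8 in control rats. The upper 3 mulberry rats exceeded every control rat, the other mulberry rats lay among the controls, and control rat 3 was the lowest. The difference was 0.79 ± 0.32 (interval 0.095 to 1.48, adjusted p = 0.9999 with limma), and 0.51 without control rat 3. Its control mean of 71.0 lay close to the filter level of 61.1.

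For type IV collagen, the network of basement membranes, no difference was detected. Col4a1 was at 448, 333, 443, 445 and 395 in mulberry rats, against 427, 389, 349, 328 and 329.6 in control rats. The groups overlapped over most of their range, and the difference was 0.17 ± 0.13 (interval -0.10 to 0.44) and 0.12 ± 0.19 on a second probe set. Col4a2, its partner chain and head-to-head neighbour, had 194, 264, 285, 65.7 and 236 in mulberry rats, against 199, 189, 214, 155 and 182 in control rats. Mulberry rat 4 was far below all others, so that the difference of 0.017 ± 0.30 became 0.35 without it. Col4a5 was at -0.068 ± 0.17.

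Nor was one detected for type VI collagen. Col6a1 had intensities of 304, 274, 396, 372 and 267 in mulberry rats, against 516, 336, 325, 282 and 166 in control rats. Control rats held both the highest and the lowest value. Col6a2 was at 158, 73.8, 189, 111 and 126 in mulberry rats, against 164, 153, 129, 99.2 and 81.6 in control rats. For Col6a3 intensities were 461, 324, 339, 289 and 476 in mulberry rats, against 399.6, 379, 346, 301 and 211 in control rats. Mulberry rat 2 was lowest for Col6a2 and control rat 5 for Col6a3, and the groups overlapped in both. Differences were 0.056 ± 0.24 for Col6a1, 0.046 ± 0.24 for Col6a2 and 0.20 ± 0.19 for Col6a3. Col18a1, a heparan sulphate collagen that yields endostatin and is made by hepatocytes, had 4873, 5366, 5001, 4209 and 5125 in mulberry rats, against 5308, 5512, 4751, 4397 and 4727 in control rats. The groups overlapped, and the interval of the difference was -0.21 to 0.20 around -0.0068 ± 0.094. Its second probe set gave -0.0067 ± 0.092. Among the remaining tested collagens were Col14a1 (0.11 ± 0.11), which sits on fibril surfaces, Col22a1 (0.12 ± 0.19) and Col16a1 (-0.072 ± 0.15). The others were the membrane collagens Col13a1 (-0.053 ± 0.15) and Col23a1 (-0.22 ± 0.39), and Col9a2 (0.023 ± 0.23).

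No pair of chains of related proteins passed a test of varying together from rat to rat. In all, 8 pairs in which both genes passed the filter were compared over 10 rats with two-sided permutation tests (100000 permutations). The closest pair was Col6a1 with Col6a2, with Pearson r = 0.70 (permutation p = 0.0197, adjusted p = 0.158 over 8 pairs) and Spearman rho = 0.75 (permutation p = 0.0177, adjusted p = 0.142), so it did not pass. Without control rats 1 and 5, which lay farthest from the Col6a1 median, r was 0.60, and on deviations from the group means it was 0.70. For Col4a1 with Col4a2, which share the 76 bases printed above, r was -0.21 (permutation p = 0.659) and rho 0.12 (permutation p = 0.760). There r was 0.31 without mulberry rat 4 and -0.40 without control rats 4 and 5, which lay farthest from the Col4a1 median. Col1a1 with Col1a2 gave r = 0.061 (permutation p = 0.868) and rho = 0.12 (permutation p = 0.762), and r = 0.43 without control rat 2 and mulberry rat 2. The other 5 pairs, Col5a1 with Col5a2, Col6a1 with Col6a3, Lamb1 with Lamc1, Lama4 with Lamc1 and Col1a1 with Col3a1, had r between 0.072 and 0.49, and their adjusted p lay between 0.570 and 0.868. Without the 2 farthest rats their r spanned -0.36 (Col6a1 with Col6a3) to 0.80 (Lamb1 with Lamc1).

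**Figure D3:**
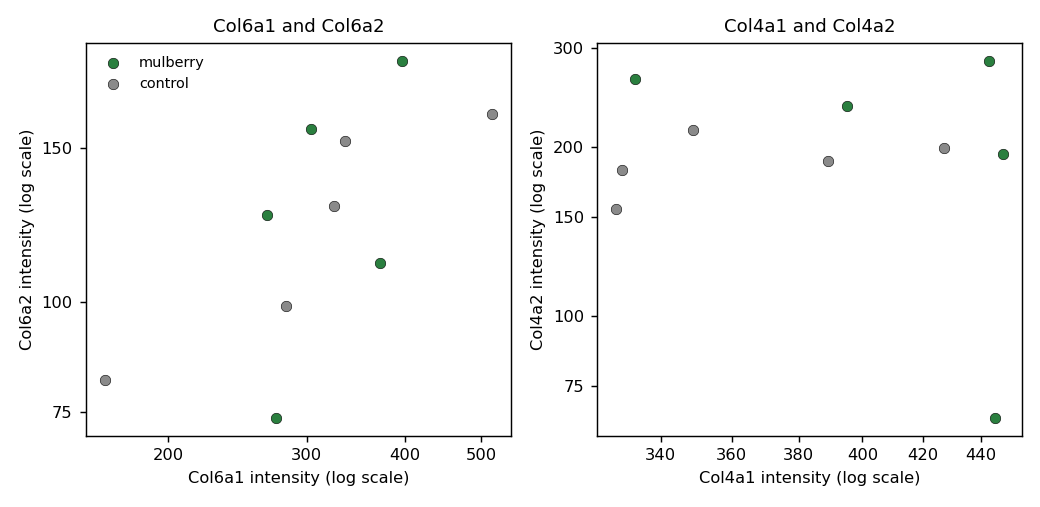
Intensity of Col6a2 against Col6a1 (left) and of Col4a2 against Col4a1 (right), both axes logarithmic, 1 point per rat, mulberry in green and control in grey. The left points run upwards (r = 0.70), and the right points show no trend, with mulberry rat 4 at a Col4a2 intensity of 65.7.

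Laminins, cross-shaped proteins of 1 alpha, 1 beta and 1 gamma chain that carry basement membranes, had a higher mean with mulberry in 6 of 8 cases (median 0.142), and none passed. Lamb3, the beta chain of the laminin of epithelia, had intensities of 66.2, 101, 72.3, 118 and 96.0 in mulberry rats, against 53.1, 65.5, 68.0, 72.2 and 47.9 in control rats. Mulberry rats 2, 4 and 5 were clearly above every control rat, mulberry rat 3 lay beside the highest control, and mulberry rat 1 lay among the controls. The difference was 0.45 ± 0.20 (interval 0.027 to 0.88, adjusted p = 0.9999 with limma). The control mean on the log2 scale was 6.26, under the filter level of 6.27, and the mulberry mean was 6.71, so Lamb3 was tested only because of its mulberry values. Lamc3, a gamma chain, was at 263, 239, 203, 229.6 and 212 in mulberry rats, against 193, 121, 136, 222 and 207 in control rats. Mulberry rats were all above 200 while control rats 2 and 3 were well below them, control rat 1 was a little below, and control rats 4 and 5 lay within the mulberry range. The difference was 0.38 ± 0.17 (interval 0.013 to 0.75, adjusted p = 0.9999 with limma).

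The common gamma chain gene Lamc1 had 465, 409.9, 361, 375 and 344 in mulberry rats, against 486, 431, 324, 306 and 293 in control rats. The groups overlapped throughout, with a difference of 0.10 ± 0.16, and -0.18 ± 0.20 on the second probe set. Lamb1, its frequent beta partner, had 134, 125, 116, 114 and 87.9 in mulberry rats, against 137, 74.6, 131, 101 and 103 in control rats. Lama4, the alpha chain of vessel laminins, had 101, 85.9, 99.8, 139 and 77.2 in mulberry rats, against 96.3, 109.7, 111, 86.7 and 100.4 in control rats. Differences were 0.081 ± 0.18 for Lamb1 and -0.021 ± 0.17 for Lama4, both within their SE. Lama3, the alpha partner of Lamb3, ranged widely within each group, at 237, 475, 261, 502 and 654 in mulberry rats, against 231, 223, 296, 536 and 615 in control rats. In this case 3 mulberry and 2 control rats lay between 475 and 654, all others between 223 and 296, and the group difference was 0.18 ± 0.33. Lamb2 was at 0.20 ± 0.22 and Lama2 at -0.20 ± 0.16.

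**Figure D4:**
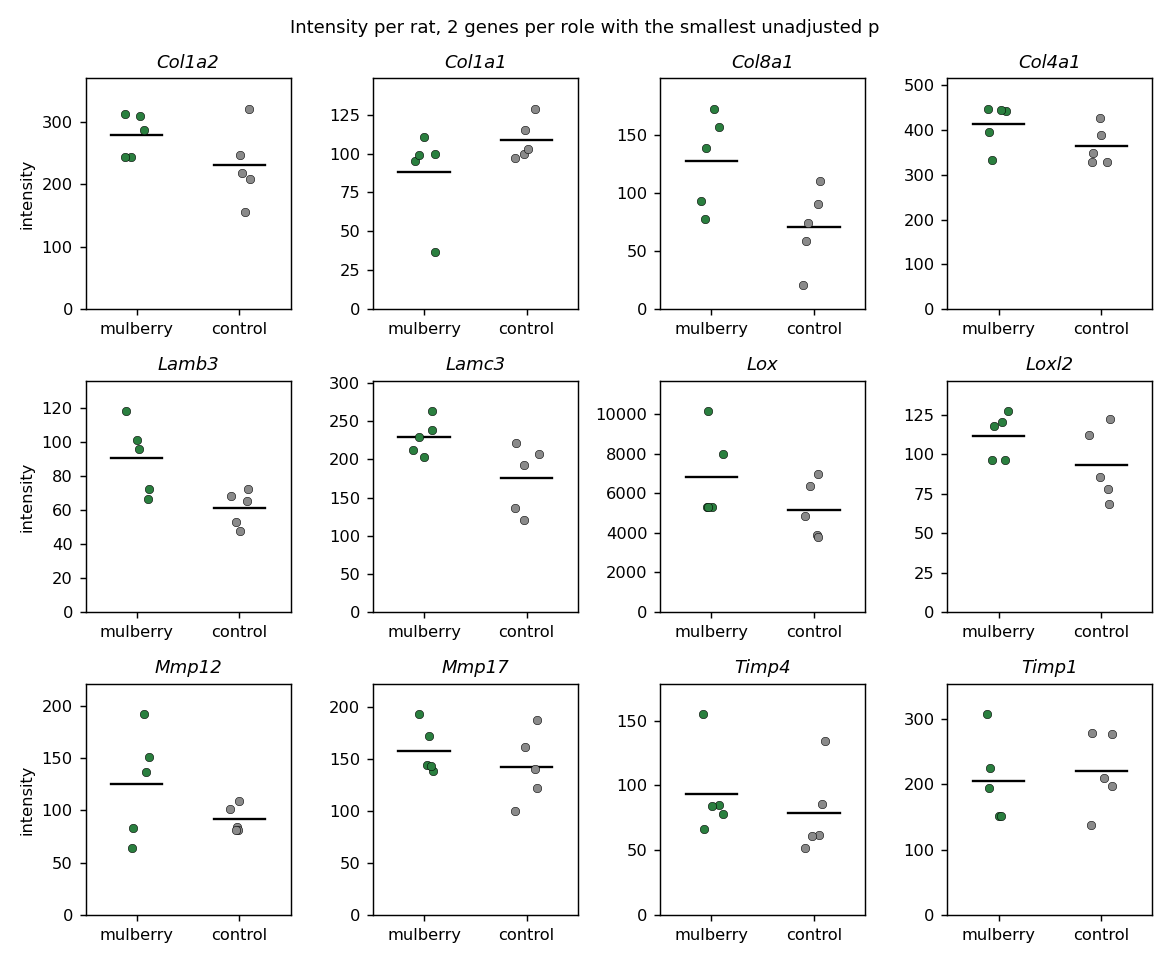
Linear intensity (vertical axes, from 0) in each mulberry rat (green) and each control rat (grey), with group means as black lines, for the 2 genes of each role with the smallest unadjusted p. In all 12 panels the points of the groups overlap, and mulberry rat 2 (Col1a1, 36.6) and mulberry rat 4 (Lox, 10153, and Timp4, 155) stand off from their group.

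Cross-linking enzymes and other matrix proteins had a higher mean with mulberry in 7 of 10 cases (median 0.118), and none passed. Lox, the secreted enzyme that starts collagen and elastin cross-links, had 5298, 5300.1, 5318, 10153 and 8008 in mulberry rats, against 3884, 3812, 6394, 6982 and 4852 in control rats. Mulberry rats 4 and 5 were the highest of all 10, mulberry rats 1 to 3 lay amid the controls, and the groups overlapped. The difference was 0.38 ± 0.22 (interval -0.091 to 0.86), or 0.23 without mulberry rat 4. On the second, dimmer Lox probe set intensities were 1059, 1466, 1872, 2131 and 2252 in mulberry rats, against 1078, 806, 963, 1486 and 1588 in control rats. Mulberry rats 3, 4 and 5 exceeded every control rat there, and mulberry rat 1 lay below control rat 1. That difference was 0.56 ± 0.23 (SE), also without passing the adjusted threshold.

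Loxl1 and Loxl2 are relatives of Lox with similar chemistry. Loxl2 had 120.2, 127, 96.3, 96.1 and 118 in mulberry rats, against 122, 112, 68.5, 77.6 and 85.6 in control rats. Its difference was 0.24 ± 0.18, with overlapping groups. Loxl1, which acts on elastic fibres, was at 0.62 ± 0.55, and at 0.086 without control rat 5, whose intensity of 4.86 was far below the other 9 rats. Fn1, fibronectin, had intensities of 19725, 17487, 17064, 19159.5 and 17053 in mulberry rats, against 17759, 17448, 18979, 18932 and 16327 in control rats. The 10 values spanned a narrow range, and the interval of the difference ran from -0.14 to 0.18 around 0.016 ± 0.074. The collagen-binding protein gene Sparc was at 0.18 ± 0.14 (0.11 ± 0.13 on the second probe set). Among the small proteoglycans, which coat collagen fibrils, Dcn was at 0.11 ± 0.26, Bgn at -0.058 ± 0.16 and Lum at -0.35 ± 0.32. For Lum and Dcn control rat 4 was the highest of all rats, and without it the Lum difference was -0.092 and that of Dcn 0.38. Of the elastic fibre genes, Fbn1 was at 0.13 ± 0.17 and Eln at -0.49 ± 0.37, or -0.13 without mulberry rat 4.

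Matrix metalloproteinases had a higher mean with mulberry in 6 of 9 cases (median 0.055), and none passed. Mmp12, the macrophage elastase, had 83.5, 151, 63.7, 192 and 137 in mulberry rats, against 84.4, 81.5, 81.5, 101 and 109 in control rats. Mulberry rats held both the 3 highest values and the lowest. The difference was 0.32 ± 0.25, or 0.16 without mulberry rat 4. Mmp17, a membrane-anchored enzyme, had 138, 193, 144, 143 and 172 in mulberry rats, against 188, 140.1, 122, 99.8 and 162 in control rats, with overlapping groups and a difference of 0.15 ± 0.17. Mmp14, the membrane enzyme that cuts collagen and activates Mmp2, had 2219.8, 2448, 2219.7, 1172 and 2002 in mulberry rats, against 2188, 2383, 1650.0, 1630.4 and 1864 in control rats. Mulberry rat 4 was the lowest of all 10, and the difference of 0.023 ± 0.19 became 0.21 without it. Mmp2, a gelatinase of stellate cells, was at 0.055 ± 0.20 on its brighter probe set. On the dimmer one intensities were 84.2, 73.7, 156, 126 and 78.2 in mulberry rats, against 79.8, 69.2, 49.5, 61.0 and 55.6 in control rats, with mulberry rats 3 and 4 on top, rat 1 just above the highest control and rats 2 and 5 among the controls. That difference was 0.56 ± 0.22 (SE), and it did not pass the adjusted threshold either. Mmp15, Mmp16, Mmp19, Mmp23 and Mmp24 lay between -0.11 (Mmp23) and 0.25 (Mmp16).

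The 4 tissue inhibitors, secreted blockers of these enzymes, were split, with 2 higher and 2 lower means (median 0.005). Timp1, which increases in injured and fibrotic liver, had 194, 151, 151, 307 and 225 in mulberry rats, against 197, 138, 279, 277 and 209 in control rats. Both groups ran from about the same low to the same high, with a difference of -0.096 ± 0.22 (interval -0.58 to 0.39). Timp2 had 534, 418, 284, 573 and 605 in mulberry rats, against 393, 395, 758, 454 and 395 in control rats. Control rat 3 was the highest, and the difference was 0.013 ± 0.23, or 0.19 without that rat. Timp4 had 77.6, 66.0, 84.8, 155 and 84.3 in mulberry rats, against 51.4, 61.8, 85.7, 61.3 and 134 in control rats. Mulberry rat 4 and control rat 5 stood above the other 8, and the difference was 0.22 ± 0.26, or 0.047 without mulberry rat 4. Timp3, which binds to the matrix itself, was at -0.0031 ± 0.21, with -0.10 ± 0.22 and -0.12 ± 0.16 on its other probe sets.

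Over the 18 members with 2 or more tested probe sets, 13 had the same sign on all of them and 5 did not, namely Col1a1, Col5a1, Lamc1, Mmp23 and Mmp24. Of the 71 tested probe sets of members, 5 had an unadjusted p under 0.05, where the background was 1.74% of 18625 probe sets. They were those of Col8a1, Lamb3 and Lamc3 and the dimmer ones of Lox and Mmp2, all higher with mulberry. None of them passed the adjusted threshold. Lamb3 passed the filter through its mulberry values, with a control mean under the filter level, so its share in this count and its direction support nothing.

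The group difference of the whole set was about as large as the spread between rats. The mean over the 52 members, relative to all 10 rats, was 0.066, -0.054, 0.074, 0.028 and 0.11 in mulberry rats, against 0.082, -0.11, -0.054, 0.017 and -0.16 in control rats. Of the mulberry rats, 4 of 5 were above 0, as were control rats 1 and 4, so the groups overlapped. The group means differed by 0.089, and the pooled SD between rats of a group was 0.081. Fibrillar collagens were at 0.18, -0.36, 0.17, 0.082 and 0.22 in mulberry rats, against 0.34, 0.10, -0.26, -0.17 and -0.31 in control rats. Mulberry rat 2 was the lowest of all and control rat 1 the highest. Tissue inhibitors ranged from -0.29 to 0.37 in mulberry rats and from -0.38 to 0.32 in control rats, with the high rats being mulberry 4 and 5 and control 3 and 5. For cross-linking and other proteins the extremes were both controls, at 0.26 (rat 4) and -0.46 (rat 5). Control rats 2 and 5 each held the lowest value of 11 members, and control rat 1 the highest of 8. Such counts were not made over all genes, so they do not show that these rats were unusual for matrix genes.

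**Figure D5:**
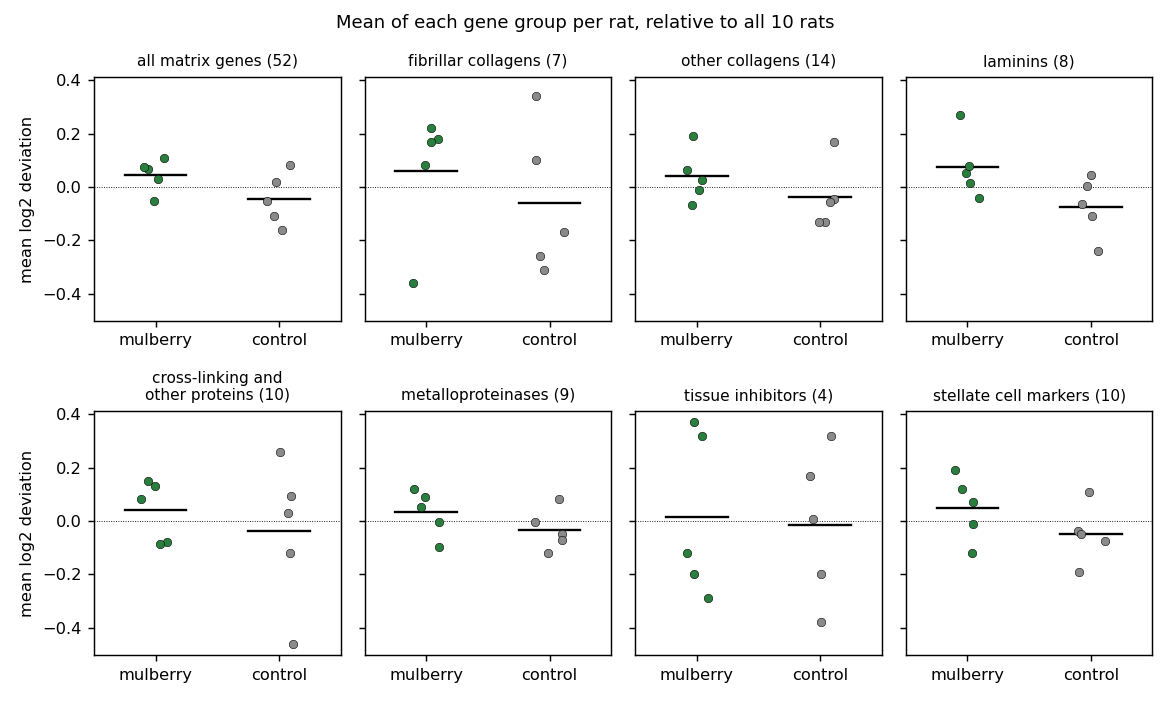
Mean log2 deviation of each gene group from its level over all 10 rats (vertical axes), 1 point per rat, mulberry in green and control in grey, group means as black lines and the number of genes in brackets. The 52 matrix genes lie between -0.054 and 0.11 in mulberry rats and between -0.16 and 0.082 in control rats, and every panel shows overlapping groups.

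Markers of the cells that make matrix were in the same range. Of 10 tested stellate cell and myofibroblast markers, 7 had a higher mean with mulberry (median 0.140), their summed intensity was 4589.8 to 5708 in mulberry rats and 4130.5 to 5344 in control rats, and Hgf, Ngfr and Tagln lay under the filter. Their mean per rat was -0.012, -0.12, 0.19, 0.071 and 0.12 in mulberry rats, against 0.11, -0.075, -0.036, -0.050 and -0.19 in control rats. Control rat 5 was the lowest on these markers and on the matrix genes. The part of such cells in the matrix values was not tested. Markers with the smallest unadjusted p in this list were Reln (0.20 ± 0.12) and Lrat (0.20 ± 0.16). Portal fibroblast markers were higher in 1 of 3 cases (median -0.299), with Thy1, Entpd2 and Gli1 under the filter. Eln, also a matrix gene, was lower at -0.49 ± 0.37, and Mfap4 was at -0.30 ± 0.23. The mean of this list differed by -0.24 between the groups, or by -0.11 without Eln. Smooth muscle markers were higher in 4 of 4 tested cases (median 0.148), with Actg2, Cnn1 and Tagln under the filter. Myl9 was at 0.21 ± 0.17 and Myh11 at 0.24 ± 0.34, and Des is also in the stellate cell list.

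Among other cell types, endothelial markers were split 6 to 5 (median 0.015, Emcn 0.22 ± 0.13, Eng -0.16 ± 0.11). Macrophage markers were higher in 7 of 9 cases (median 0.120), with Cd14 at -0.38 ± 0.14 and Cd68 at 0.39 ± 0.18. Their summed intensity went the other way, at 11607 to 21288 in mulberry rats and 14689 to 25063 in control rats. The mean of these markers per rat ran from -0.59 to 0.31 in mulberry rats and from -0.27 to 0.51 in control rats. Bile duct markers were higher in 1 of 3 tested cases (median -0.075), with Krt19 at -0.16 ± 0.26 and Slc4a2 at -0.075 ± 0.13. Cftr, Krt7 and Spp1 lay under the filter. Lymphocyte markers were higher in 3 of 4 tested cases (median 0.113, lowest -0.012), with Cd4 at 0.29 ± 0.18 and Ptprc at 0.20 ± 0.25. Cd3d, Cd3e, Cd79b and Cd8b lay under the filter. The 1 tested mesothelial marker, Msln, was at -0.90 ± 0.35, with Gpm6a, Upk1b and Wt1 under the filter. Its log2 deviation was -1.74 in mulberry rat 5, -0.71 to 0.28 in the other mulberry rats and -0.15 to 0.98 in control rats. Hepatocyte markers, which define the labelled tissue, had summed intensities of 239132 to 297093 in mulberry rats and 241200.3 to 289253 in control rats, and 8 of 9 had a higher mean with mulberry (median 0.037), with Fgb at 0.063 ± 0.072 and Ahsg at 0.068 ± 0.080.

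The wider matrix pathway did not pass either, with 0 members of any of 5 lists past an adjusted p of 0.05 (limma). Enzymes that hydroxylate, fold and trim collagen had a higher mean with mulberry in 4 and a lower one in 8 of 12 cases (median -0.022). P4ha1, a prolyl hydroxylase subunit, was at -0.23 ± 0.22 and Serpinh1, the collagen chaperone, at 0.18 ± 0.18. Basement membrane and matrix glycoproteins were higher in 10 of 13 (median 0.041), with Prelp, a matrix anchor, at 0.34 ± 0.17 and Mfap4, a microfibril protein, at -0.30 ± 0.23. Matrix receptors were higher in 12 of 18 (median 0.015), among them the integrin alpha chains Itga1 (0.21 ± 0.15), which binds collagen, and Itga8 (0.24 ± 0.18). The transforming growth factor beta list, the main fibrogenic signal, was even at 8 higher and 8 lower (median -0.002). In it Smad4, a signal transducer, averaged 1181 ± 59.3 in mulberry and 1305 ± 48.7 in control rats (SD, n = 5 each). The difference was -0.14 ± 0.086 (unadjusted p = 0.121 with limma). Its groups did not overlap, which held for 33 of all 10328 genes (0.320%) and for 1 of the 16 genes in this list. Ltbp2 was at 0.54 ± 0.35. Other proteases and inhibitors were higher in 11 of 16 (median 0.012), with the sheddase Adam17 at 0.20 ± 0.12 and Adamts1, a protease of proteoglycans, at -0.12 ± 0.16.

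The 31 members under the filter were not tested, and their values are given as a description. Mean intensities per group were between 3.24 (Col19a1) and 71.5 (Col6a6) in mulberry rats and between 2.73 (Col9a1) and 66.1 (Col25a1) in control rats. Col12a1, at a mean level of 6.26, was the member just below the filter level. They include the rodent interstitial collagenase gene Mmp13, with a mean of 20.6 in mulberry rats and 21.4 in control rats, the gelatinase Mmp9, with 31.3 in mulberry and 23.5 in control rats, and the neutrophil collagenase Mmp8, with 40.2 in mulberry and 23.5 in control rats. For Mmp8, mulberry rats had intensities of 42.6, 60.2, 31.1, 33.1 and 33.9, against 17.0, 21.8, 37.2, 20.6 and 21.1 in control rats. Control rat 3 lay within the mulberry range, and the other control rats lay below it. Col10a1, with the largest difference of the 31 (-0.61), went the other way, with a mean of 19.8 in mulberry and 34.9 in control rats. So did Col17a1, with 10.5 in mulberry and 19.6 in control rats.

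Across the series, arrays were alike. Correlations between arrays over all probe sets other than controls ran from 0.957 to 0.975 and averaged 0.966 inside a group and 0.967 between groups, and the median intensity was between 97.5 and 118.1. Precision is limited by how many arrays there are.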

How the data were processed

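The authors deposited 1 linear intensity per probe set and array, and the submitters' processing notes name MAS5 and affy, with no version. The trimmed mean of each array, with 2% cut at each end, was the same, so the deposited intensities were already scaled. Per the labels' protocols, total RNA was labelled as biotinylated cRNA. Of 31099 probe sets, 57 controls were left out, and those at or under the 40th percentile of mean log2(intensity + 16), which is 6.27 or an intensity of 61.1, were not tested, which left 18625. Genes were named from the platform annotation, where 20826 probe sets had 1 symbol, 436 several and 9780 none. Probe sets with several symbols were not used, and all 83 members matched RefSeq by Entrez ID.

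Groups were compared with limma 3.58.1 (R 4.3.3, lmFit and eBayes with a variance trend), adjusted by Benjamini-Hochberg over all tested probe sets, with a threshold of 0.05. The fit was tested on simulated data. Each rat is 1 replicate. Genes described with values per rat were, in each role, the 2 with the smallest unadjusted p, the 1 with the highest mean and the chain pairs, and from each other list the 2 with the smallest unadjusted p. Other genes given with values per rat or singled out were chosen after their values were seen. The members and lists were chosen with earlier results of these data known. Alternatives were other pseudocounts, filters, normalizations, weights and probe set rules, a replicate block and leaving out rats. Other steps used Python 3.11.15 with scipy 1.17.1.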

Additional observations from a re-analysis of the deposited data

Results flagged for a closer look

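Among 104 groups of 5 values, 1 for each tested member and group, 10 held a rat whose gap to its nearest neighbour was more than 0.71 of the whole range on the log2 scale, the limit of Dixon's test for 5 values. For normally distributed values, chance gives about 1 in 20 groups. The rule was run on members only, so the share over all genes is not known. The count is therefore no result about matrix genes. Of the 10, 7 came from mulberry rats 2 and 4.

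Mulberry rat 2 was apart for Col1a1 (gap 0.851 of the range, intensity 36.6 against 95.0 to 111 in the other mulberry rats), Col27a1 (0.800, 19.8 against 103 to 145) and Mmp2 (0.825, 187 against 266 to 287). It was also low for the mean of the fibrillar collagens (0.762, a log2 deviation of -0.36 against 0.082 to 0.22).

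Mulberry rat 4 was low for Col4a2 (0.724, 65.7 against 194 to 285), Eln (0.739, 12.8 against 71.8 to 114) and Mmp14 (0.726, 1172 against 2002 to 2448), and high for Timp4 (0.720, 155 against 66.0 to 84.8).

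Among control rats, rat 5 was low for Fbn1 (0.818, 143 against 247 to 278), rat 4 high for Mmp16 (0.774, 122 against 41.6 to 54.2), rat 3 high for Timp2 (0.784, 758 against 393 to 454) and rat 1 high for the mean of the other collagens (0.720, a log2 deviation of 0.17 against -0.13 to -0.046).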

How the results depend on the processing

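With limma, 0 probe sets and 0 members passed an adjusted p of 0.05 under each of the 21 settings, and between 171 and 878 probe sets had an unadjusted p under 0.05. The matrix gene median difference stayed positive throughout. It was 0.042 with quantile normalization, 0.054 with a median shift, 0.104 with array weights, 0.140 without control rats 1 and 3, and 0.033 to 0.097 with 1 rat left out. Without a filter 52 members had a higher and 31 a lower mean, and with a filter at the 60th percentile 19 and 10, since other numbers of genes were tested. Of the 52 members, 28 had the same sign in all 22 settings, the median over probe sets included, and 24 did not, and the cause was not tested.

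Signs turned for Col4a2 with a pseudocount of 1 (-0.00020) and quantile normalization (-0.014), Col9a2 with quantile normalization (-0.019), Timp2 with a median shift (-0.0021), Timp3 with a pseudocount of 64 (0.00048), Bgn (0.050) and Timp3 (0.074) with array weights, and Col1a1 (0.095) and Lamc1 (-0.038) with the median over probe sets. Without control rats 1 and 3 they turned for Col18a1 (0.012), Col5a2 (0.062), Lama4 (0.0034), Bgn (0.091), Lama3 (-0.081), Mmp15 (-0.047) and Timp3 (0.050). With 1 rat left out, differences that turned ranged as follows: Fn1 -0.016 to 0.038, Mmp14 -0.058 to 0.21, Timp2 -0.078 to 0.19, Col6a2 -0.086 to 0.21, Col9a2 -0.19 to 0.11, Timp3 -0.19 to 0.13, Col4a2 -0.12 to 0.35, Lama4 -0.13 to 0.054, Krt19 -0.30 to 0.0094, Mmp15 -0.034 to 0.22, Col6a1 -0.15 to 0.24, Col18a1 -0.047 to 0.048, Slc4a2 -0.13 to 0.019, Bgn -0.14 to 0.045, Col4a5 -0.20 to 0.015, Col2a1 -0.0072 to 0.23, Col5a2 -0.21 to 0.040, Col23a1 -0.57 to 0.00037, Lamb1 -0.030 to 0.16, Mmp2 -0.078 to 0.16, Dcn -0.035 to 0.38, Col13a1 -0.11 to 0.013, Ptprc -0.0092 to 0.35 and Fbn1 -0.030 to 0.19. Correlations that turned ranged over -0.024 to 0.14 for Col1a1 with Col1a2, -0.40 to 0.31 for Col4a1 with Col4a2, -0.070 to 0.67 for Col6a1 with Col6a3 and -0.018 to 0.19 for Lama4 with Lamc1.

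The groups share rat numbers, but same-numbered rats did not deviate together, with correlations of 0.10, -0.20, -0.33, 0.07 and 0.09 for numbers 1 to 5, so the pairing was not used. With the replicate number as a block, 0 probe sets passed, 286 had an unadjusted p under 0.05, 1 of 52 members did, and the median member difference was 0.069.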
